A study of Mus musculus with 7 samples.

Results

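The ankyrin repeat and SOCS box (ASB) genes described here are 10 muscle-expressed genes of the family, called members below. They are Asb2, Asb5, Asb8, Asb10, Asb11, Asb12, Asb14, Asb15, Asb16 and Asb18, and other Asb genes were detected at lower levels per length. They were taken by symbol from a table of 53819 genes in mouse quadriceps, the large thigh muscle, which lists 18 numbered Asb genes in all. The members were chosen by their expression level in muscle, so that level is given as a description with no test. They were also chosen with the group difference known, so counts of members past a threshold are given beside the same count over all genes and nothing is read from them.

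All animals were males of the inbred strain C57BL/6J, wild type in genotype, injected at 8 weeks of age through the tail vein with 200 µl of an adeno-associated virus of serotype 8, which the labels describe as having liver tropism. The control vector was AAV8-Alb-Null (AAV8-Null, 4 libraries) and the other carried IGFBP1, AAV8-Alb-IGFBP1 (AAV8-IGFBP1, 3 libraries), and muscle was taken after 54 days. IGFBP1 is a secreted, mainly hepatic protein that binds insulin-like growth factors. The labels do not say that each library is a separate mouse, so the p-values cover the spread among these samples alone and part of that spread may be technical.

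ASB proteins are substrate receptors of cullin 5 ubiquitin ligases. Their ankyrin repeats hold a target protein, and their SOCS box binds elongin B, elongin C and cullin 5, which brings the target to the ubiquitin transfer machinery. Several members are expressed mainly in striated muscle. ASB2 is the best studied of these: it directs filamins, large actin crosslinkers, to degradation, and it has been described as a brake on muscle growth.

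Library totals ran from 38947493 to 51210391 counts. Igfbp1 had 142 to 1425 counts in the AAV8-IGFBP1 libraries and 0 to 8 in AAV8-Null. Acta1, the skeletal muscle actin gene, lay at 24150 to 29050 CPM (counts per mega-count of the TMM-scaled library total) in AAV8-IGFBP1, with a mean of 25530 in AAV8-Null, so this marker of skeletal muscle was abundant in both groups. Over all genes, edgeR's quasi-likelihood test called 83 of 14935 at an adjusted p under 0.05, which is 0.556% (54 higher, 29 lower in AAV8-IGFBP1). DESeq2 called 447 and limma-voom 104. Without AAV8-Null replicate 1 the edgeR count was 19, without AAV8-Null replicate 3 it was 52, and without AAV8-IGFBP1 replicates 1 and 2 it was 28 and 23.

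Asb2 was by far the most abundant family member per length. To compare genes, CPM was divided by the length of the longest coding transcript, which gave 297 CPM per kb for Asb2 as a mean over the 7 libraries. Asb5 followed at 68.0 and Asb11 at 56.7 CPM per kb, and the library ranges of these 2 genes overlapped. Asb14 (39.2 CPM per kb), Asb10 (36.4), Asb16 (28.7), Asb8 (26.7), Asb15 (23.0) and Asb12 (18.3) formed a run in which each gene's range over the libraries overlapped that of the next. Asb18 was the lowest member at 8.86 CPM per kb, and its range overlapped with neither neighbour.

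The other family genes lay below all members on this scale. The first family genes outside the set were Asb4 at 4.49 and Asb13 at 3.84 CPM per kb, and Asb1, Asb7, Asb6 and Asb3 lay between 2.13 and 1.32. Asb17 had 12 counts in AAV8-Null replicate 1, 3 in replicate 2 and 0 in the other libraries. Asb9 had 0 counts in every library, which allows up to 0.0586 to 0.0770 CPM from counting error alone. The order within the middle group depends on the length used: with the median coding transcript length Asb10 ranked 4, Asb8 ranked 5 and Asb14 ranked 6, while Asb2, Asb5 and Asb11 kept ranks 1 to 3 and Asb18 rank 10. Outside the members, Asb1 depends most on it: with the median length it stood at 9.65 CPM per kb and ranked 11, next below Asb18 at 14.7.

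**Figure D1:**
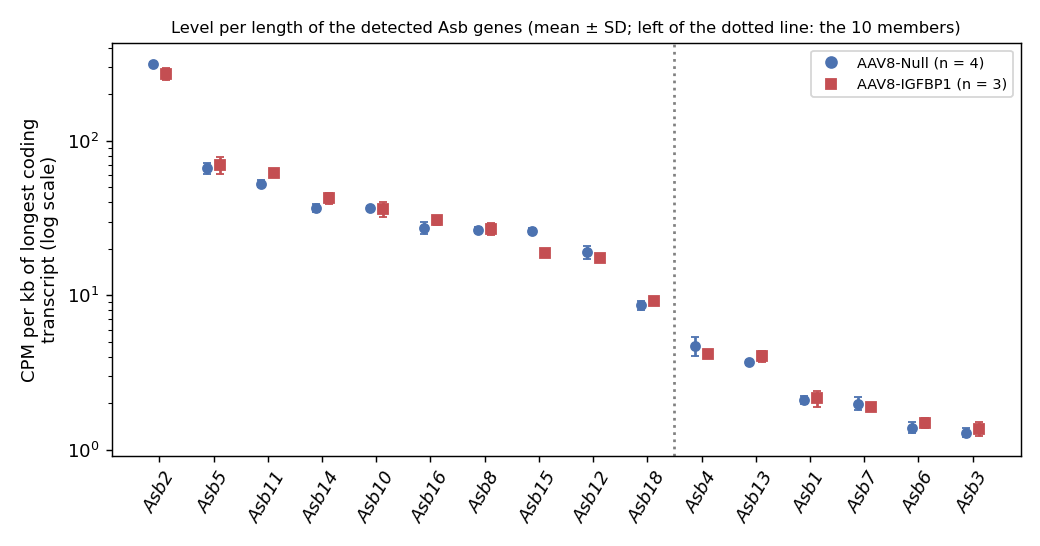
Level of the 16 Asb genes detected in every library, in CPM per kb of the longest coding transcript on a log axis, as mean ± SD for AAV8-Null (circles, n = 4) and AAV8-IGFBP1 (squares, n = 3). Asb2, at 297 CPM per kb over all libraries, stands above all others, and Asb18 at 8.86 is the lowest of the 10 members left of the dotted line.

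The promoters of the members were examined because the genes are expressed together in this tissue. RefSeq windows on GRCm38.p6 run from 250 bases before to 50 after each annotated start and covered all 10 members with 14 windows. A match to the MEF2 consensus, the A and T rich element bound by myocyte enhancer factors, was found in 5 of the 10 members, Asb5, Asb12, Asb14, Asb16 and Asb18. Of all 27025 genes with such windows 3.70% had a match, and none of the 7 other Asb genes with windows did (Asb1, Asb4, Asb6, Asb7, Asb9, Asb13, Asb17). The CArG box, the element bound by serum response factor, matched in Asb2 and Asb5, against 1.81% of all genes. Both consensus sequences equal their own reverse complement, so a single scan covers both strands. The following stretches are shown because they hold these matches, in capitals, 5′ to 3′ on the strand of the gene.
Asb16, MEF2, chr11:102268678-102268717 (+): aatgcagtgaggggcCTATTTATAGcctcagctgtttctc
Asb18, MEF2, chr1:90014667-90014692 (-): aacccagccctgattCTATTTATAGc
Asb14, MEF2, chr14:26894569-26894608 (+): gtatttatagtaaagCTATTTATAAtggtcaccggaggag
Asb12, MEF2, chrX:95478153-95478192 (-): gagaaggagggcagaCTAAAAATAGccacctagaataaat
Asb5, MEF2, chr8:54571343-54571382 (+): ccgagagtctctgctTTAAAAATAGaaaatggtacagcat
Asb2, CArG, chr12:103356041-103356080 (-): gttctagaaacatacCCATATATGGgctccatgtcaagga
Asb5, CArG, chr8:54550105-54550144 (+): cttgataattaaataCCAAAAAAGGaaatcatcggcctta

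Asb16 and Asb18 carried the same 10 letters, CTATTTATAG, 58 and 11 bases before the annotated start. The MEF2 matches of Asb12 and Asb14 began 48 and 30 bases before it. The 2 matches of Asb5 belong to different annotated starts, the MEF2 match to the second of 3 and the CArG match to the first. The bases checked just after the second start were in no Asb5 transcript of GENCODE vM21, while those after the first were. Asb8, Asb10, Asb11 and Asb15 had neither motif in these windows. A match describes letters and does not show binding.

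**Figure D2:**
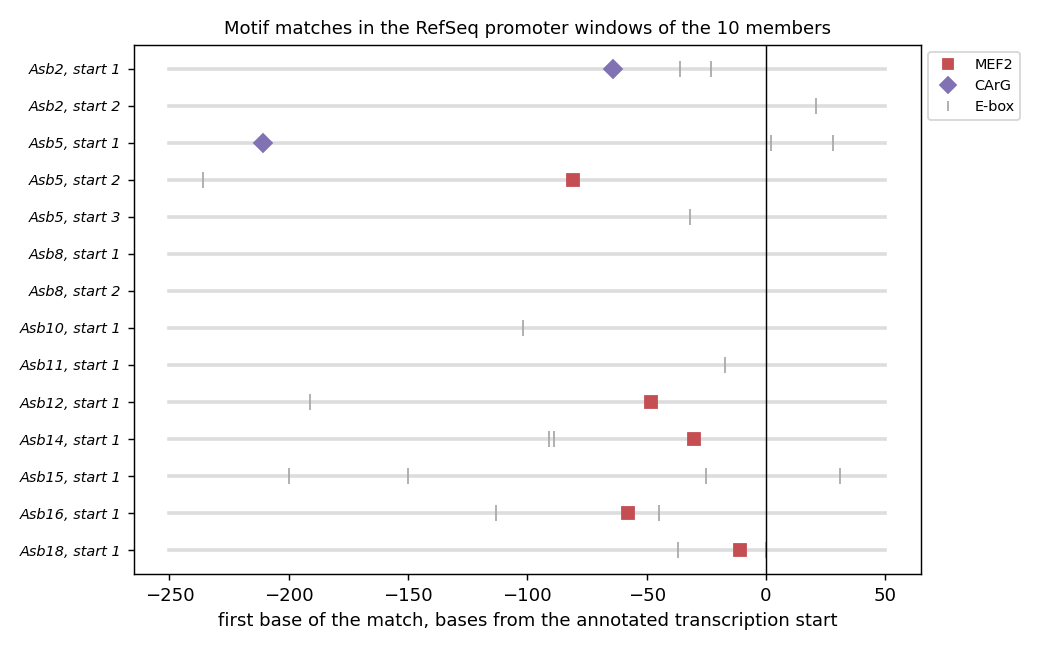
Positions of motif matches in the 14 RefSeq promoter windows of the 10 members, with the first base of each match in bases from the annotated start on the x axis. MEF2 matches (squares) lie in windows of Asb5, Asb12, Asb14, Asb16 and Asb18, CArG matches (diamonds) in Asb2 and Asb5, and grey ticks mark E-boxes, CANNTG.

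Muscle Asb15 fell in AAV8-IGFBP1. Asb15, which has been studied as a regulator of muscle cell growth and differentiation, lay at 118.7, 113.9, 107.7 and 115.6 CPM in AAV8-Null replicates 1 to 4. In AAV8-IGFBP1 it lay at 78.1, 82.4 and 86.6 CPM in replicates 1 to 3. All 3 AAV8-IGFBP1 libraries were below all 4 AAV8-Null libraries, and the spread within each group was small beside the gap. The means were 114.0 ± 4.64 and 82.4 ± 4.25 CPM (SD, n = 4 and 3), or -0.47 ± 0.06 (SE) as log2 fold change, with an adjusted p of 0.0143 by edgeR. The level fell by 27.7%.

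Asb15 was the 1 of 10 members past edgeR's test, against 0.556% of all genes (0.194% lower, 0.362% higher), and DESeq2 and limma-voom also called it alone among the members, where they called 2.99% and 0.696% of all genes. Its log2 fold change ran from -0.51 to -0.39 over the 18 alternatives tried and it passed in 13 of them (adjusted p 3.75e-09 to 0.154). Leaving out 1 library ended the edgeR call in 3 cases: AAV8-Null replicate 1 (adjusted p = 0.0674), AAV8-IGFBP1 replicate 1 (0.0842) and AAV8-IGFBP1 replicate 2 (0.0554).

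Of 11 slow fibre markers, 10 had a log2 fold change below 0 and Casq2, a calsequestrin gene, lay above at 0.06, with 0 past edgeR's test and 5 at an unadjusted p under 0.05. The mean level of 11 slow fibre genes, as log2 CPM centred over the 7 libraries, was 1.08, -0.42, 0.35 and 1.00 in AAV8-Null replicates 1 to 4. It was -1.42, -0.67 and 0.07 in AAV8-IGFBP1 replicates 1 to 3, so the groups overlapped. Myh7, the slow myosin heavy chain gene, ran from 191 to 747 CPM in AAV8-Null and from 63.2 to 327 in AAV8-IGFBP1. With that level added to the model, Asb15 stood at -0.39 on the log2 scale and no longer passed edgeR's test (adjusted p = 0.0866). In whole muscle, fewer cells of a type and less RNA per cell cannot be told apart.

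The mean levels of 2 marker lists, satellite cells (the stem cells of muscle) and smooth muscle and pericytes, did not overlap between the groups. Gene by gene, 4 of 10 tested satellite cell markers lay below without overlap and 1, Cdh15, above. Of 8 smooth muscle and pericyte markers 3 lay below without overlap, while Rgs5, Pdgfrb and Cspg4 overlapped. Over all genes 12.3% did not overlap. The satellite cell level, from 10 genes on the same centred scale, was 0.28, 0.18, 0.22 and 0.17 in AAV8-Null and -0.24, -0.34 and -0.28 in AAV8-IGFBP1. The smooth muscle and pericyte level, from 8 genes, was 0.07, 0.07, 0.41 and 0.30 in AAV8-Null and -0.26, -0.35 and -0.24 in AAV8-IGFBP1. The summed levels were 128 to 140 against 109 to 115 CPM for satellite cells, without overlap. For smooth muscle and pericytes they were 3457 to 3597 against 3119 to 3413 CPM, also without overlap. That second sum is mostly Des, at 3197 to 3304 CPM in AAV8-Null and 2902 to 3177 in AAV8-IGFBP1. It describes Des more than the other genes of the list. Rgs5, the next most abundant gene in it, overlapped between the groups (147 to 203 against 160 to 176 CPM). Calcr was the satellite cell marker too low to be tested. The part of these markers in the Asb15 result was not tested.

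**Figure D3:**
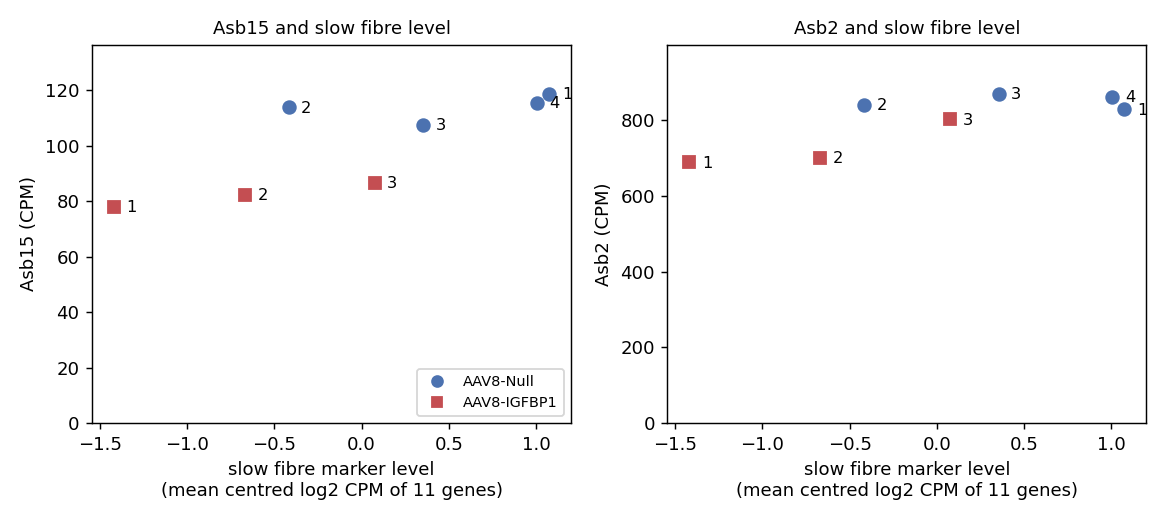
Asb15 (left) and Asb2 (right) in CPM against the slow fibre marker level of the same library, the mean centred log2 CPM of 11 genes. Each point is a library labelled with its replicate number. Asb15 lies at 107.7 CPM or more in all AAV8-Null circles and at 86.6 CPM or less in all AAV8-IGFBP1 squares.

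The 250 bases before the annotated start of Asb15 are shown because this member changed. They lie at chr6:24527894-24528143 on the plus strand (GRCm38.p6), and capitals mark the 3 E-boxes in this stretch, CANNTG, a motif that is its own reverse complement and so is found on both strands at once.
Asb15: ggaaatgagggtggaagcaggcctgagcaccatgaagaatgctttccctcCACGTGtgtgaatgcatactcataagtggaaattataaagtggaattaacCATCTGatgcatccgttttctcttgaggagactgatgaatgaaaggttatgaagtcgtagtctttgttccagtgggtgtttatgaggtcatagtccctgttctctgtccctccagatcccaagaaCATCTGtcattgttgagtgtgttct
E-boxes are common, and 75.0% of all genes had at least 1 in their windows, as had 9 of the 10 members. The form CACGTG, itself an E-box and in Asb15 at 200 bases before the start, was present in 8.09% of all genes and in Asb2 and Asb15 among the members. TTCNNNGAA, the core letters bound by STAT factors, had no match in any member's windows, against 9.55% of all genes.

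Asb2 had lower values in every AAV8-IGFBP1 library without passing the test. It lay at 828.8, 840.2, 869.4 and 862.1 CPM in AAV8-Null and at 689.6, 700.3 and 802.2 CPM in AAV8-IGFBP1. Replicate 3 of AAV8-IGFBP1 came closest to the controls, still below the lowest of them. The means were 850.1 ± 18.9 and 730.7 ± 62.2 CPM (SD, n = 4 and 3; log2 fold change -0.22, with SE 0.07; adjusted p = 0.246 by edgeR). The log2 fold change ran from -0.29 to -0.15 over the alternatives, and the lowest adjusted p was 0.0670, from DESeq2. Adding the slow fibre level as covariate gave -0.15. Asb2 alone took 0.0832 to 0.0852% of all counts in AAV8-Null and 0.0695 to 0.0784% in AAV8-IGFBP1.

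Asb11 and Asb14 had higher values in AAV8-IGFBP1, and neither passed the test. Asb11, whose zebrafish counterpart acts in muscle progenitors, lay at 75.8, 72.1, 75.7 and 82.1 CPM in AAV8-Null. It lay at 93.5, 86.4 and 87.9 CPM in AAV8-IGFBP1, so the groups did not overlap. Its log2 fold change was 0.22 (with SE 0.06; adjusted p = 0.175 by edgeR) and 0.19 to 0.26 over the alternatives, with 0.0511 as the lowest adjusted p, from DESeq2.

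Asb14 lay at 73.6, 81.2, 70.2 and 78.8 CPM in AAV8-Null and at 91.8, 78.9 and 91.5 CPM in AAV8-IGFBP1. AAV8-IGFBP1 replicate 2 sat within the control range, while replicates 1 and 3 sat above it. The log2 fold change was 0.20 (with SE 0.08; adjusted p = 0.319 by edgeR), and 0.17 to 0.27 over the alternatives.

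Asb16 followed with 77.6, 75.6, 70.8 and 86.7 CPM in AAV8-Null and 92.4, 80.6 and 87.5 CPM in AAV8-IGFBP1. The groups overlapped at AAV8-Null replicate 4 (log2 fold change 0.16, with SE 0.08; adjusted p = 0.443 by edgeR).

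The remaining 5 members differed by less than or about as much as their spread. Asb5, an ankyrin repeat gene described in growing arteries and in satellite cells, had 105.7 ± 8.92 CPM in AAV8-Null and 110.6 ± 13.3 in AAV8-IGFBP1 (SD, n = 4 and 3). Its exons share 75 bases with Spcs3 on the opposite strand in GENCODE vM21, and with the strand setting of the counting unknown, reads there cannot be assigned to 1 of the genes. Asb8 had 58.8 ± 2.46 and 60.1 ± 5.51 CPM. Asb10, the gene linked to glaucoma in human genetics, had 85.3 ± 2.27 and 84.0 ± 8.99 CPM.

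Asb12 had 23.9 ± 2.22 CPM in AAV8-Null and 21.9 ± 0.915 in AAV8-IGFBP1. Asb18 had 33.4 ± 2.22 and 35.3 ± 1.12 CPM. Log2 fold changes of these 5 members ran from -0.12 for Asb12 to 0.08 for Asb18, with edgeR adjusted p-values of 0.592 to 0.936. Asb12 was at -0.06 without AAV8-Null replicate 2, and Asb18 at 0.04 without AAV8-Null replicate 3 and 0.16 with the slow fibre level in the model. Asb5, Asb8 and Asb10 changed sign under at least 1 alternative. AAV8-IGFBP1 replicate 2 was the lowest of the 7 libraries for Asb5, Asb10 and Asb12, at 95.5, 74.2 and 21.1 CPM, and AAV8-IGFBP1 replicate 3 the highest for Asb5, Asb8 and Asb18.

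**Figure D4:**
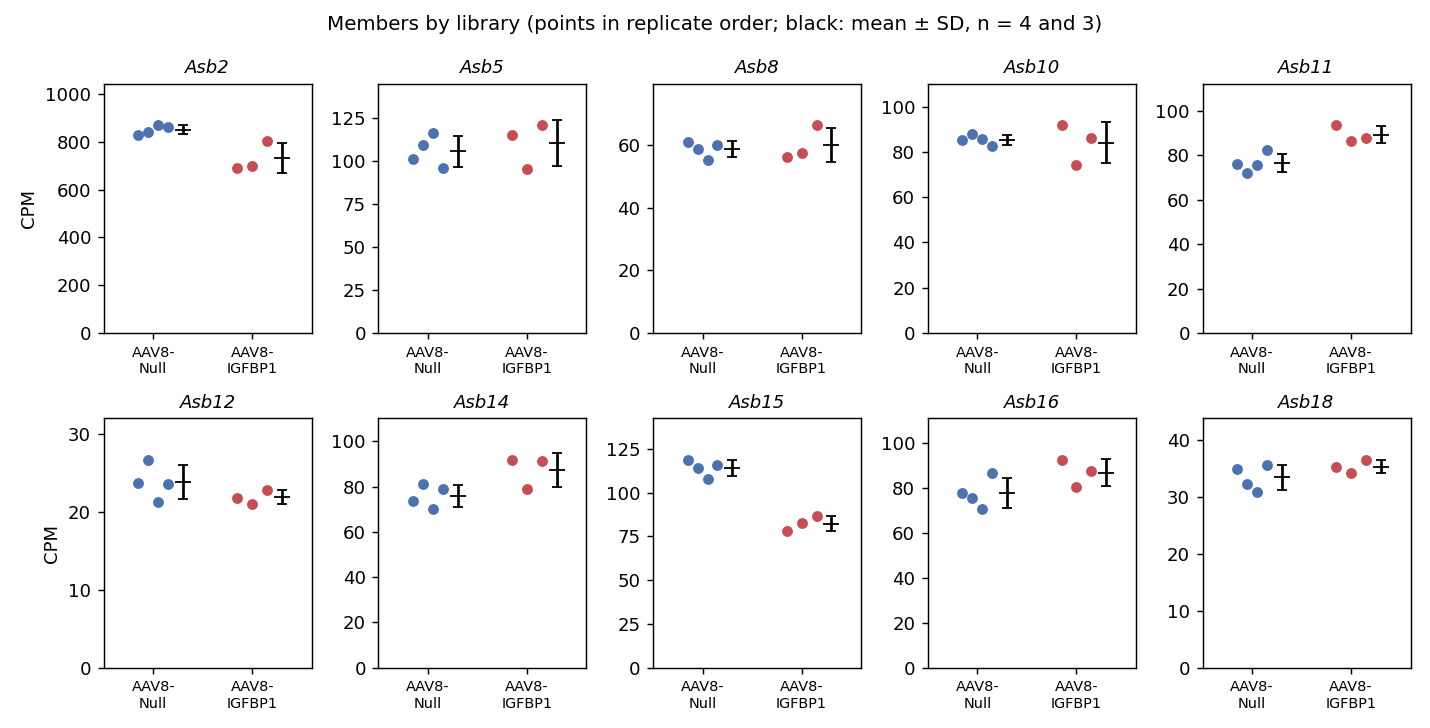
CPM of the 10 members in each library, with points in replicate order, the mean ± SD in black (n = 4 for AAV8-Null, n = 3 for AAV8-IGFBP1) and each y axis starting at 0. Asb15 and Asb2 lie lower in every AAV8-IGFBP1 library and Asb11 higher, and the other 7 members overlap between the groups.

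The members lay on both sides of 0, which is a description and not a result about the set. All 10 passed the count filter, 6 had a log2 fold change above 0 and 4 below (50.1% of all genes were below), and the median was 0.05, against -0.00065 over all genes tested. At an unadjusted edgeR p under 0.05 there were 2 higher and 2 lower, against 12.6% of all genes in either direction. The groups did not overlap in 3 of the 10 members, against 12.3% of all genes: 2 members lay below (6.01% of all genes) and 1 above (6.33%). The summed level of the 10 members was 1481 to 1523 CPM in AAV8-Null and 1311 to 1489 CPM in AAV8-IGFBP1, a sum that Asb2 dominates. The median biological coefficient of variation that edgeR estimated was 0.0902 for the members, against 0.134 over all genes tested. A low value is not particular to the members. Among the lists described below it was 0.0857 for the cullin 5 core and 0.0889 for NEDD8 removal and receptor exchange. The remaining lists had higher values than the members.

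The rest of the family gave no call. As edgeR called 0.556% of all genes, DESeq2 2.99% and limma-voom 0.696%, nothing is read from this. Of the 6 other Asb genes tested, 0 passed with edgeR, DESeq2 or limma-voom, and 0 had an unadjusted edgeR p under 0.05. Their log2 fold changes ran from -0.18 (Asb4) to 0.13 (Asb13). Asb4 had 15.5 ± 2.27 CPM in AAV8-Null and 13.7 ± 0.83 in AAV8-IGFBP1, and Asb13 had 16.5 ± 0.658 and 18.0 ± 1.52 (SD, n = 4 and 3).

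No gene of the ligase that ASB proteins work with passed the test. Over all genes, 0.556% passed with edgeR, 2.99% with DESeq2 and 0.696% with limma-voom. An unadjusted edgeR p under 0.05 was found for 12.6% of all genes. Nothing is read from 0 calls in this list or in those that follow. Of 15 genes of the cullin 5 core and of cullin activation by NEDD8, 0 passed with edgeR, DESeq2 or limma-voom and 0 had an unadjusted edgeR p under 0.05. Their log2 fold changes ran from -0.12 (Dcun1d3, a NEDD8 ligase factor) to 0.06 (Cul5), and the lowest p belonged to Ube2m, a NEDD8 conjugating enzyme (-0.10, adjusted p = 0.534). Ube2f, the other NEDD8 conjugating enzyme in the list, was at -0.02 (adjusted p = 0.936 by edgeR). Cul5, the scaffold, had 96.8 ± 1.42 CPM in AAV8-Null and 100.6 ± 5.24 in AAV8-IGFBP1. The other subunits of the ligase are named for their role: the RING subunit gene Rnf7 was at 0.05 (adjusted p = 0.824 by edgeR), and the elongin genes Elob and Eloc had 0.03 and 0.05 (adjusted p 0.877 and 0.815).

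Genes that remove NEDD8 or exchange receptors also gave 0 calls of 13 with edgeR, DESeq2 and limma-voom, and 1 had an unadjusted edgeR p under 0.05. That gene was Senp8, a NEDD8 protease, at 5.26 to 6.29 CPM in AAV8-Null and 4.05 to 4.67 in AAV8-IGFBP1 (log2 fold change -0.38, adjusted p = 0.191 by edgeR). Cand1, the exchange factor for cullin receptors, was at -0.19 (adjusted p = 0.397) and Cops9, of the COP9 signalosome, at 0.20 (0.411).

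**Figure D5:**
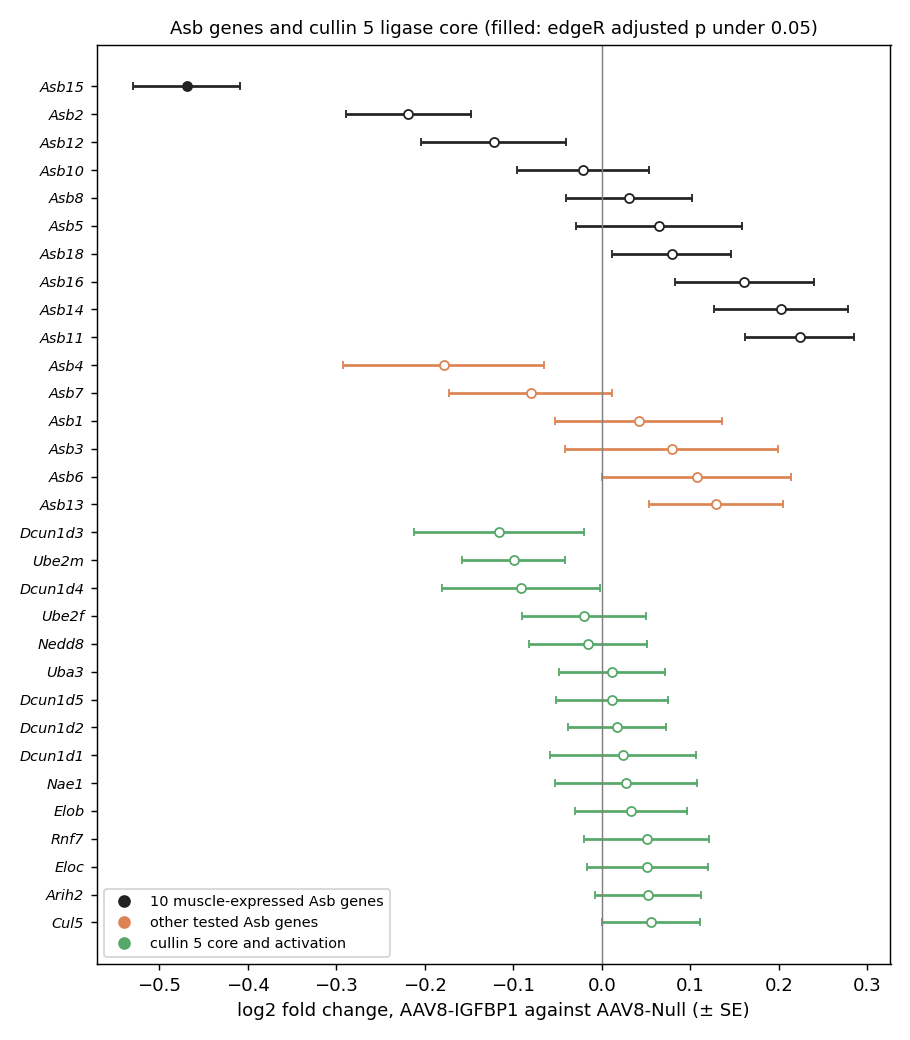
Log2 fold change of AAV8-IGFBP1 against AAV8-Null with its SE for the 10 members (black), the 6 other tested Asb genes (orange) and 15 cullin 5 core and activation genes (green). The filled point, Asb15 at -0.47, is past edgeR's adjusted p of 0.05, and the green points lie between -0.12 and 0.06.

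Of 17 other SOCS box receptor genes, 1 rose by edgeR and 0 fell, with 5 at an unadjusted p under 0.05. Over all genes edgeR called 0.556%, and 12.6% had an unadjusted p under 0.05. Socs2, the feedback inhibitor of growth hormone signalling, went from 8.08 to 28.8 CPM (log2 fold change 1.83, adjusted p = 0.00639 by edgeR). Wsb1, a WD repeat receptor, did not pass: it lay at 5.84 to 8.17 CPM in AAV8-Null and at 4.28 to 4.89 in AAV8-IGFBP1 (log2 fold change -0.65, adjusted p = 0.0670 by edgeR). Socs7 (0.21, adjusted p = 0.145), Socs4 (-0.27, 0.176) and Spsb4 (-1.54, 0.112) did not pass either, and their groups did not overlap. In this list 2 genes lay above and 3 below without overlap, against 6.33% and 6.01% of all genes. DESeq2 called 2 of the 17 higher and 2 lower, against 2.99% of all genes in either direction.

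Proteins reported as ASB targets were taken as a list of 15 genes, 13 of them tested, of which 1 fell. Over all genes edgeR called 0.556% (0.194% lower). Ckb, the brain type creatine kinase gene whose protein ASB9 binds, lay at 4.26 to 4.66 CPM in AAV8-Null and at 2.702 to 2.975 in AAV8-IGFBP1 (log2 fold change -0.67, adjusted p = 0.0409 by edgeR). Asb9 itself had 0 counts. The filamin genes Flna and Flnc, whose proteins ASB2 targets, had log2 fold changes of -0.39 and -0.29 (edgeR adjusted p 0.422 and 0.583). Flnc, the muscle filamin, named for its role, had 954 CPM in AAV8-Null and 781 in AAV8-IGFBP1. These are transcripts, and protein was not analysed here.

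Of 14 tested muscle transcription factor genes, 13 lay below 0 and 1 above (median log2 fold change -0.07), where 50.1% of all genes lay below. With edgeR, DESeq2 or limma-voom 0 passed, and 3 had an unadjusted edgeR p under 0.05, all lower. Among them were Six4 (log2 fold change -0.32, adjusted p = 0.222 by edgeR) and Myf6 (-0.25, 0.341). The MEF2 genes Mef2a, Mef2c and Mef2d, named for the motif above, lay between -0.07 and -0.04, and Srf at -0.01. Of 12 tested denervation response genes, 0 passed with any of the 3 tools and 1 had an unadjusted p under 0.05, Gadd45a (0.41, adjusted p = 0.325). Gadd45a was 1 of 2 genes above 0 in this list, and 10 lay below (median -0.07).

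The 11 slow fibre genes had a median log2 fold change of -1.39, and the 5 at an unadjusted edgeR p under 0.05 were all lower. By DESeq2 1 of them fell, and by limma-voom 0. Tnnc1, the slow troponin C gene, lay at 35.3 to 95.8 CPM in AAV8-Null and at 10.2 to 34.1 in AAV8-IGFBP1 (-1.71 on the log2 scale, adjusted p = 0.324 by edgeR). Of 12 fast fibre genes and 10 genes shared by all fibres 0 passed with edgeR, DESeq2 or limma-voom (medians 0.07 and 0.10), with 1 and 2 at an unadjusted p under 0.05. Of the fast fibre genes 8 lay above 0 and 4 below. Actn3, the fast fibre alpha-actinin gene, had the lowest p (0.25, adjusted p = 0.355 by edgeR). The fast myosin heavy chain genes differed in sign: Myh4 was at 0.17 (adjusted p = 0.550), Myh1 at -0.45 (0.417) and Myh2 at -0.66 (0.572).

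Satellite cell, fibroblast and smooth muscle markers had 1 gene lower each by edgeR, Sdc4, Col15a1 and Tagln, with medians of -0.51, -0.39 and -0.37. These are 1 of 10, 1 of 10 and 1 of 8 genes, against 0.556% of all genes. DESeq2 called 3 lower in each of these lists, and limma-voom 2, 1 and 1. At an unadjusted edgeR p under 0.05 the satellite cell list had 5 genes lower and 1 higher (Cdh15, 0.22), and the fibroblast and smooth muscle lists had 4 lower each. Tenocyte, endothelial, leukocyte and Schwann cell markers had 0 calls by edgeR (medians -0.47, -0.12, -0.09 and -0.25). Unadjusted p-values under 0.05 numbered 2, 1, 0 and 3 in these 4 lists, DESeq2 called 0, 0, 0 and 2, and limma-voom called 0 in each. Adipocyte markers had 0 calls by edgeR, 0 by limma-voom, 2 unadjusted and 1 call by DESeq2 (median 1.095). Their level was 2.01 in AAV8-IGFBP1 replicate 2, against -1.04 to 0.23 in the other libraries, and in a model that holds that level Asb15 was at -0.48 (adjusted p = 0.0348 by edgeR). Chodl, Des, Myf5 and Myog each belong to 2 of the lists. The part of the tenocyte, fibroblast, endothelial, leukocyte and Schwann cell markers in the members' values was not tested.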

How the data were processed

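The authors deposited estimated counts per gene symbol, 1 column per library. Per the submitters' processing notes, the build was GRCm39 and the software included STAR 2.7.9a, Salmon 1.10.1, Trim Galore 0.6.7, cutadapt 3.4 and R 4.2.2, with neither role nor order stated. Annotation and strandedness are not given in the sources used here. Counts were rounded and tested with edgeR 4.0.16 in R 4.3.3 (filterByExpr, TMM scaling, glmQLFit with robust set to TRUE, glmQLFTest), with Benjamini-Hochberg adjustment over 14935 genes at 0.05. Each SE is the size of the log2 change over the root of its F statistic. Levels of marker lists use log2 CPM with a prior count of 2. DESeq2 1.42.0, limma-voom 3.58.1 with quality weights, other scalings and filters, covariates, a replicate block and leaving out each library were alternatives. Lengths came from GENCODE vM21 and promoters from RefSeq, both on GRCm38, so no gene positions in the counts' build are given. Members and the 18 other lists were chosen with earlier results of these data known. Named genes are all members, other Asb genes, in each list those that passed or had the lowest p, and Myh7, Tnnc1 and Myh4 as fibre type markers. Acta1, Casq2, Cdh15, Cspg4, Cul5, Elob, Eloc, Flnc, Itga7, Mef2a, Mef2c, Mef2d, Myh2, Pdgfrb, Rnf7, Socs4, Socs7, Srf and Ube2f were added after their values were seen. Some genes that this rule names are not reported here. A count of 0 allows up to 3 counts, for counting error only, since reads are not independent molecules. The edgeR test was tested on simulated data.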

Additional observations from a re-analysis of the deposited data

How the results depend on the processing

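Over 18 alternatives for each of 16 Asb genes, 282 of 288 log2 fold changes kept their direction. The 6 exceptions lay near 0 and past no threshold. Asb10 (-0.02) was 0.0102 with limma-voom and 0.0412 with the adipocyte level in the model. With 1 library left out, Asb10 ranged from -0.0894 to 0.0613, Asb5 from -0.0036 to 0.160, Asb8 from -0.0469 to 0.0750 and Asb1 from -0.0370 to 0.133; the sign changed without AAV8-IGFBP1 replicate 2 for Asb10 and without replicate 3 for the others. The count of members called, 1, became 0 once the slow fibre level was in the model, and was 0 to 1 with a library left out. The count over all genes, 83, was 447 with DESeq2, 306 without a count filter, where more genes were tested, and 19 to 86 with a library left out. With the replicate block it was 19 and 0 members were called (Asb15 -0.46, edgeR adjusted p = 0.154), a fit in which AAV8-Null replicate 4 has a block of its own and adds nothing to the contrast. The numbers are shared but the labels do not say that they pair mice, and deviations of same-numbered libraries correlated across genes at -0.0984, 0.0682 and -0.0574, with no AAV8-IGFBP1 library closest to its own number. Changes of scaling moved the median of all genes by -0.00252 to 0.00141 on the log2 scale. Asb17 and Asb9 had too few counts to be tested.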

Other observations

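Asb15 and Asb14 lie on opposite sides of 0, and their counts within a library were set against each other after their values were seen. The ratio of Asb15 to Asb14 counts was 1.61, 1.40, 1.53 and 1.47 in AAV8-Null replicates 1 to 4 and 0.851, 1.04 and 0.947 in AAV8-IGFBP1 replicates 1 to 3. The ratio of Asb2 to Asb14 counts was 11.3, 10.4, 12.4 and 10.9 in AAV8-Null and 7.51, 8.87 and 8.77 in AAV8-IGFBP1. Neither ratio overlapped between the groups, which follows in part from choosing genes on opposite sides of 0, so the ratios are a description that adds no support. They do not depend on how libraries are scaled.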
